A study of Rattus norvegicus with 458 samples.

Results

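The data described here are the microRNA (miRNA) profiles of the brainstem and the cerebrum of the same 10 rats, which make up 20 of the 215 libraries in the series (40 of its 458 sequencing runs). The members were chosen by the tissue label alone, and the libraries were paired by the animal number. All rats were naïve Sprague Dawley animals, 12 to 13 weeks old, 5 males (rats 2 to 6) and 5 females (rats 7 to 11), with no treatment, transgene or disease in either group. The brainstem RNA of rat 5 was extracted a second time from the homogenate. The brainstem holds the midbrain, pons and medulla, which link the forebrain to the spinal cord, and the cerebrum holds the cerebral hemispheres. The labels do not give the borders of the dissection. Small RNA was ligated to adapters, size selected and read on a HiSeq2000, and the deposited value is the number of reads assigned to each miRNA name in each run. Because each library is bulk tissue, fewer cells of a type and less RNA per cell cannot be told apart in any of the values below.

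MiRNAs are short RNAs that guide Argonaute proteins to messenger RNAs, mostly through the seed, bases 2 to 8 from the 5′ end. Each hairpin precursor gives a 5p and a 3p arm, and hairpins that lie next to each other are often cut from a single transcript. Several miRNAs mark position along the body axis or a cell type, among them the miR-10 genes inside the HOX clusters, the miR-219 and miR-338 genes of oligodendrocytes, and miR-124, miR-9 and miR-128 of neurons.

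The sequences that carry the largest differences are printed first, as RefSeq gives them for the rat assembly GRCr8, with the seed in capitals. The following were higher in the brainstem, and are shown because they had the largest differences or were the markers given for this tissue.
miR-10a-5p (chr10:81779730-81779752, plus strand): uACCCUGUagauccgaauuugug
miR-10b-5p (chr3:80035886-80035907, plus strand, inside Hoxd4): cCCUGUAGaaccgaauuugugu
miR-10b-5p, most counted read of the deposited sequence table: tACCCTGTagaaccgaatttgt
miR-183-5p (chr4:59756106-59756127, minus strand): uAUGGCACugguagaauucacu
miR-182 (chr4:59752249-59752273, minus strand): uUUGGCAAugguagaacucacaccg
miR-96-5p (chr4:59755901-59755923, minus strand): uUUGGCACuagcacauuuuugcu
miR-1298 (chrX:115556987-115557008, plus strand, inside Htr2c): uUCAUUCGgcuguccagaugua
miR-764-3p (chrX:115490702-115490724, plus strand, inside Htr2c): gAGGAGGCcauaguggcaacugu
miR-653-5p (chr4:32647455-32647475, minus strand, inside Calcr): uUGAAACAuucucuacugaac
miR-34a-5p (chr5:165815971-165815992, plus strand): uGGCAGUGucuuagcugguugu
miR-219a-2-3p (chr3:33516517-33516538, minus strand, inside Cercam): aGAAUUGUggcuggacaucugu
miR-338-3p (chr10:105796345-105796367, minus strand, inside Aatk): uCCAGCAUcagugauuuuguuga

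The next set was higher in the cerebrum, and pairs that share a seed stand together.
miR-128-3p (chr13:42251933-42251953, plus strand, inside R3hdm1, with a second copy inside Arpp21 on chromosome 8): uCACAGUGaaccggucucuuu
miR-132-3p (chr10:60522091-60522112, plus strand): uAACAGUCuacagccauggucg
miR-212-3p (chr10:60521811-60521832, plus strand): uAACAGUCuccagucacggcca
miR-221-3p (chrX:6023246-6023268, plus strand): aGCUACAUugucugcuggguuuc
miR-222-3p (chrX:6022682-6022702, plus strand): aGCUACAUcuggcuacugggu

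The last pair shares a seed but moved in opposite directions as counted by name.
miR-204-5p (chr1:229743493-229743514, plus strand, inside Trpm3): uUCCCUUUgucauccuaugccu
miR-211-5p (chr1:127189353-127189374, plus strand, inside Trpm1): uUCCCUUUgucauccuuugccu

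The 2 sequences of the last pair differed at 1 of 22 bases (A17U, counted from the 5′ end of miR-204-5p). MiR-10a-5p and miR-10b-5p have the same seed in the most counted reads and differed there at 1 base (T12A). The RefSeq entry of miR-10b-5p starts 2 bases further in, so its capitals mark another stretch. MiR-132-3p and miR-212-3p differed at 5 of 22 bases and miR-221-3p and miR-222-3p at 10 of 21, all of them after the seed. Of the 124 names chosen by the rule for named miRNAs, 107 had a RefSeq mature sequence. For 77 of these the deposited table of read sequences could be compared, and the most counted read equalled the RefSeq sequence in 44.

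The library totals were 3374592 to 7392902 counts in the brainstem and 2958600 to 7506562 in the cerebrum, and RNA integrity numbers were 7.8 to 8.3 and 7.6 to 8.2. Neither passed a test between the tissues (exact sign-flip permutation test over the 10 rats, p = 0.691 and p = 0.852). Of 7534 names in the table, 4045 had at least 1 count in these libraries and 636 passed the filter on low counts. Levels are given in CPM, counts scaled by the library total so that all libraries have the same sum. The brainstem library of rat 9 stood apart. Its median correlation with the other brainstem libraries was 0.965, and with the cerebrum libraries it was also 0.965, whereas the other 9 brainstem libraries were closer to their own tissue by 0.023 to 0.0319. In both sequencing runs of this library miR-10a-5p and miR-10b-5p stood far below the other 9 brainstem libraries, but the runs differed. MiR-10a-5p had 1981 CPM on flow cell D1GBMACXX and 548 CPM in the other run, and miR-10b-5p had 1441 and 669 CPM. In the cerebrum of rat 9 miR-10a-5p had 705 and 101 CPM. The library was kept, so the values without rat 9 stand beside the results that it moves. In 3 of the 10 cerebrum libraries (rats 2, 4 and 9) the median correlation with the hippocampus was slightly above that with the other cerebrum libraries.

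Of the 636 names tested with edgeR's quasi-likelihood test and the rat as a block, 308 (48.4%) differed between brainstem and cerebrum at an adjusted p below 0.05. In the brainstem 128 names (20.1%) were higher and 180 (28.3%) lower, of which 57 and 60 differed by more than 1 on the log2 scale. The split depends on the scaling. With TMM in place of upper-quartile scaling the median log2 fold change of all names moved by 0.13, and 163 names were higher and 148 lower. Log2 fold changes of that size depend on the scaling chosen. The CPM ranges of the 2 tissues did not overlap for 55 higher names (8.65%) and 42 lower names (6.6%), and without rat 9 for 81 (12.7%) and 80 (12.6%). Without rat 9 the test called 145 of 642 names higher (22.6%) and 195 lower (30.4%).

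**Figure D1:**
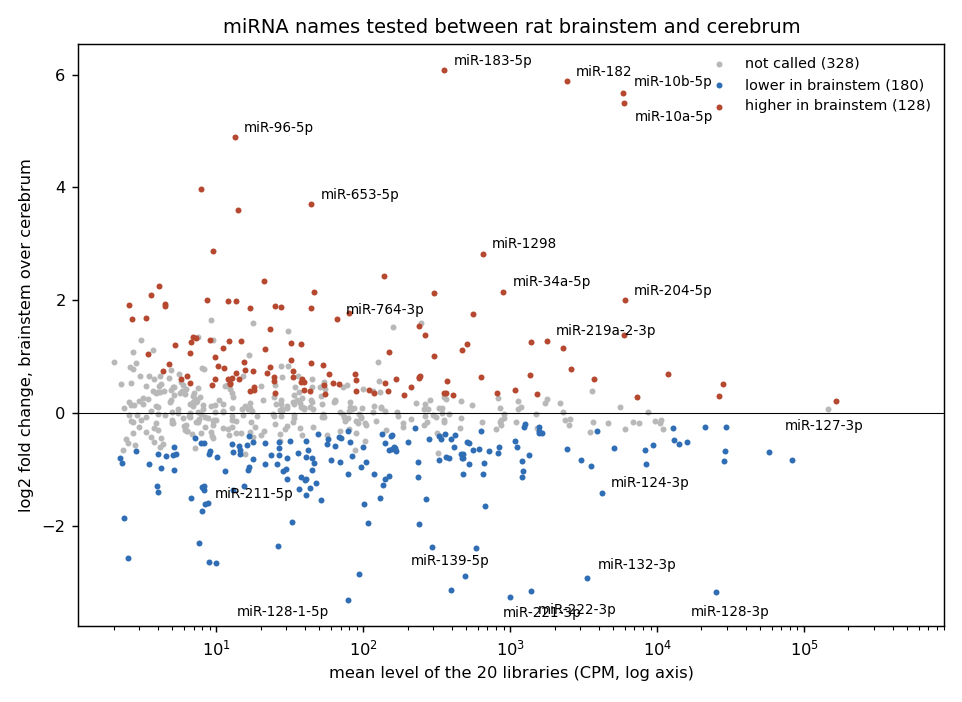
Each point is one of the 636 miRNA names tested, with the mean level of the 20 libraries in CPM on the horizontal log axis and the log2 fold change of brainstem over cerebrum on the vertical axis. Red points were higher in the brainstem (128), blue points lower (180) and grey points were not called. The largest positive values belong to the miR-183, miR-182 and miR-96 group and to miR-10a and miR-10b, and the largest negative values to miR-128, miR-221, miR-222 and miR-132.

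The 2 markers given for the brainstem were both higher there than in the cerebrum. MiR-219a-2-3p, a miRNA of oligodendrocytes that promotes their maturation, had a lowest, median and highest level of 1335, 2695 and 3396 CPM in the 10 brainstem libraries and 736, 957 and 1115 CPM in the 10 cerebrum libraries. The groups did not overlap, and the lowest brainstem value was that of rat 9, with the other 9 at 2464 CPM or more. The log2 fold change was 1.28 ± 0.13 (SE, edgeR adjusted p = 8.62e-06), where SE is the standard error of the paired fit over 10 rats. MiR-764-3p, which is cut from an intron of the serotonin receptor gene Htr2c, reached 83.6, 99.3 and 129 CPM in the brainstem against 17.7, 31.2 and 41.4 CPM in the cerebrum. All brainstem libraries, that of rat 9 included, were above all cerebrum libraries, and the log2 fold change was 1.67 ± 0.19 (SE, edgeR adjusted p = 1.99e-05).

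The miR-10 genes, which lie within the HOX clusters that pattern the hindbrain and spinal cord, separated the tissues strongly. MiR-10b-5p had a lowest, median and highest level of 766, 12395 and 16069.6 CPM in the brainstem and 51.0, 189 and 337 CPM in the cerebrum. For miR-10a-5p the values were 728, 12673 and 15993 CPM and 114, 213 and 367 CPM. The lowest brainstem value of each was that of rat 9, and the other 9 libraries held at least 9701 CPM of miR-10b-5p and 9684 CPM of miR-10a-5p. The log2 fold changes were 5.68 ± 0.52 (SE, edgeR adjusted p = 4.61e-06) for miR-10b-5p and 5.50 ± 0.47 (SE, edgeR adjusted p = 2.57e-06) for miR-10a-5p, and without rat 9 they were 6.00 and 5.81. They were the 2 HOX-cluster names that passed the filter, of 13 with any count. The passenger arms miR-10a-3p and miR-10b-3p had medians of 4.90 and 1.57 CPM in the brainstem and of 0.10 and 0 CPM in the cerebrum. MiR-196a, miR-196b, miR-196c and miR-615, which lie further along the HOX clusters, did not exceed 2.03 CPM in any library.

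The cluster of miR-183, miR-182 and miR-96 is known for its role in hair cells, photoreceptors and other sensory cells. Its miR-183-5p and miR-182 differed by more than miR-10a-5p and miR-10b-5p, and its miR-96-5p by less. MiR-183-5p stood at 10.2, 749 and 876 CPM (lowest, median and highest) in the brainstem and at 4.02, 5.72 and 38.0 CPM in the cerebrum, and miR-182 at 98.0, 5279 and 5850.1 CPM and 35.4, 55.8 and 244 CPM. Here too a single brainstem library was low. Rat 9 had 10.2 CPM of miR-183-5p and 98.0 CPM of miR-182, inside the range of the cerebrum, while the other 9 brainstem libraries held 698 to 876 CPM and 4574 to 5850 CPM. MiR-96-5p ranged from 0.498 CPM (rat 9) to 43.5 CPM in the brainstem, with a median of 26.7 CPM, against a median of 0.534 CPM in the cerebrum. The log2 fold changes were 6.08 ± 0.77 (SE, edgeR adjusted p = 5.18e-05) for miR-183-5p, 5.89 ± 0.69 (SE, edgeR adjusted p = 2.62e-05) for miR-182 and 4.89 ± 0.57 (SE, edgeR adjusted p = 2.69e-05) for miR-96-5p. Without rat 9 they were 6.46, 6.24 and 5.01. MiR-96-5p passed the filter on low counts mostly through the brainstem, so its difference is a description only. The 3 tested names, of 7 with a count, come from hairpins within 3908 bases of chromosome 4 on the minus strand.

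**Figure D2:**
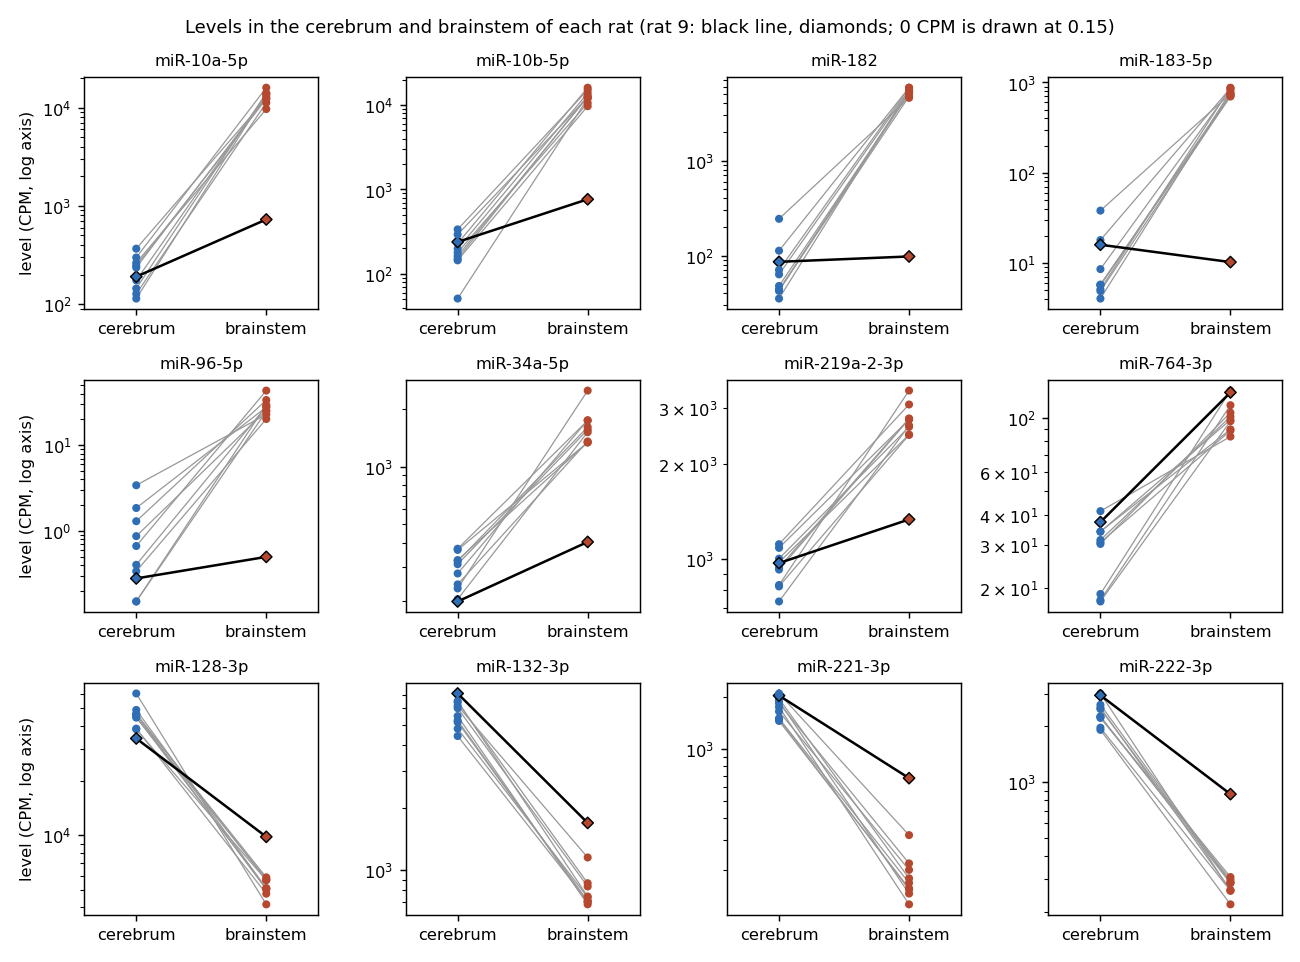
Levels of 12 miRNAs in the cerebrum (blue) and brainstem (red) of each rat, in CPM on log axes, with a line joining the 2 libraries of a rat. The black line and diamonds mark rat 9. In the panels of miR-10a-5p, miR-10b-5p, miR-182, miR-183-5p and miR-96-5p the brainstem value of rat 9 falls far below the other 9, and in the panels of miR-128-3p, miR-132-3p, miR-221-3p and miR-222-3p it lies above them. Zero is drawn at the lower edge of the miR-96-5p panel.

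Rat 9 was not low in every name that was higher in the brainstem. It was the lowest brainstem library in 61 of the 128 higher names and the highest in 101 of the 180 lower names, where the next library, that of rat 6 and that of rat 11, reached 27 and 35. For miR-653-5p and miR-489-3p, which are both cut from the calcitonin receptor gene Calcr and lie within 747 bases of each other, rat 9 was the highest brainstem library. MiR-653-5p had 53.6, 65.1 and 212 CPM in the brainstem and 1.23, 5.18 and 19.5 CPM in the cerebrum, and miR-489-3p had 11.9, 21.2 and 75.6 CPM and 0.338, 1.48 and 8.44 CPM. The highest brainstem values, 212 CPM and 75.6 CPM, were those of rat 9, and neither name overlapped between the tissues. On the log2 scale the differences were 3.71 ± 0.41 (SE, edgeR adjusted p = 1.69e-05) and 3.60 ± 0.41 (SE, edgeR adjusted p = 2.32e-05). MiR-489-3p passed the filter on low counts through the brainstem, so its difference is a description only.

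The 7 tested names of the Htr2c gene, of 9 with a count, were all higher in the brainstem, against 20.1% of all tested names, with a median log2 fold change of 2.00 against -0.02 over all names tested. Htr2c encodes the serotonin 2C receptor and is strongly expressed in the choroid plexus as well as in neurons. MiR-1298 had 233, 702 and 3773 CPM in the brainstem and 63.9, 91.7 and 119.9 CPM in the cerebrum, with a log2 fold change of 2.82 ± 0.54 (SE, edgeR adjusted p = 0.00101). MiR-448-3p had 69.2, 164 and 663 CPM and 20.3, 30.6 and 35.7 CPM, with a log2 fold change of 2.42 ± 0.43 (SE, edgeR adjusted p = 5.37e-04). The brainstem libraries were spread widely for both, yet none reached down to the cerebrum. MiR-1912-3p, miR-1264-3p, miR-448-5p and miR-764-5p had log2 fold changes of 2.87, 2.00, 1.99 and 1.93 at lower levels. On the flow cells other than D1GBMACXX the cerebrum medians of miR-1912-3p and miR-764-5p were 1.42 and 1.55 CPM, against 9.92 and 7.52 CPM in the brainstem. These names passed the filter on low counts through the brainstem, and both arms of miR-448 and of miR-764 are among the 7. The share of higher names is thus in part set by the filter and is a description only. MiR-3552, whose hairpin also lies inside Htr2c, had a log2 fold change of 2.35 ± 0.30 (SE, edgeR adjusted p = 5.58e-05).

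The Htr2c miRNAs fell into 2 patterns among the rats. MiR-1298 was highest in the brainstem of rats 7, 3, 4 and 5, at 3773, 2513, 1964 and 1406 CPM, and stood at 233 to 1020 CPM in the other 6. The same 4 rats had the highest brainstem values of miR-448-3p (663, 449.9, 429.9 and 255 CPM) and of miR-204-5p (25458, 15764, 14022 and 11036 CPM). The other 6 brainstem libraries held 4922 to 6732 CPM of miR-204-5p, which is cut from the Trpm3 gene and is abundant in the choroid plexus and retinal epithelium. MiR-764-3p, in contrast, lay between 83.6 and 129 CPM in all 10 libraries. These are descriptions over 10 libraries. Whether the dissections held different amounts of choroid plexus was not tested.

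**Figure D3:**
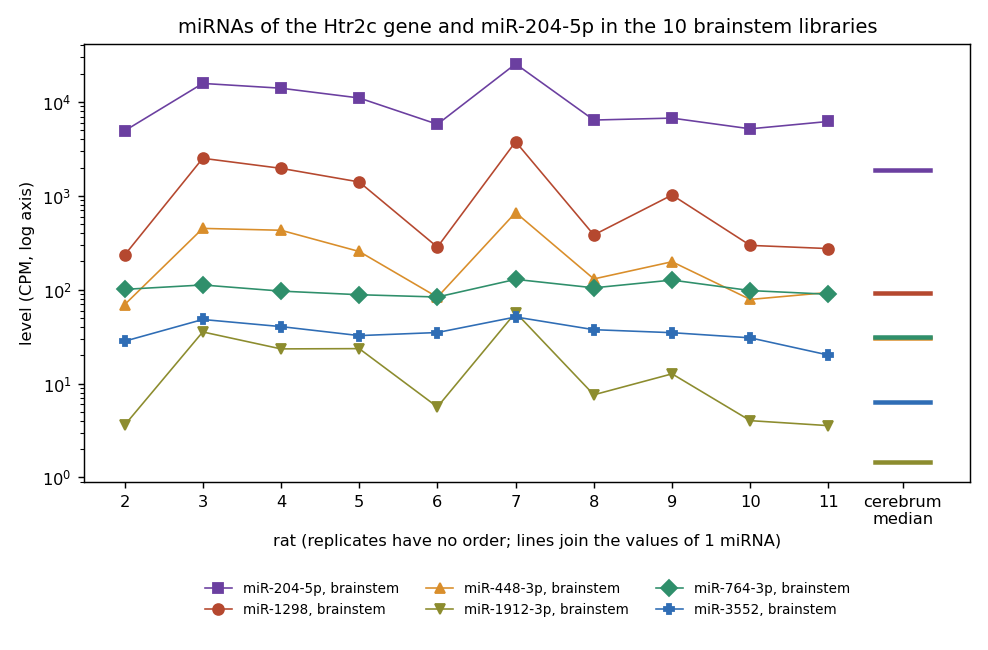
Levels in CPM (log axis) of 5 miRNAs that lie inside Htr2c and of miR-204-5p in the brainstem library of each rat, with the cerebrum median of each as a short bar at the right. MiR-204-5p, miR-1298, miR-448-3p and miR-1912-3p peak in rats 3, 4, 5 and 7, whereas miR-764-3p stays between 83.6 and 129 CPM and every brainstem point lies above its cerebrum median.

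As counted by name, the 2 miRNAs with the miR-204 seed moved in opposite directions. MiR-204-5p had 4922, 6577 and 25458 CPM in the brainstem and 1523, 1906 and 2492 CPM in the cerebrum, a log2 fold change of 1.99 ± 0.27 (SE, edgeR adjusted p = 8.97e-05). MiR-211-5p, which sits in the Trpm1 gene, had 1.88, 4.76 and 7.57 CPM and 9.24, 11.8 and 15.5 CPM, a log2 fold change of -1.61 ± 0.24 (SE, edgeR adjusted p = 1.61e-04). Neither overlapped between the tissues. Reads that could come from both were deposited under a joint name, which held a median of 21.9 CPM in the brainstem and 5.38 CPM in the cerebrum. Because these shared reads outnumber those of miR-211-5p in the brainstem, the level of miR-211-5p is uncertain there, and so is the direction of its difference.

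Of the 5 tested oligodendrocyte names 4 were called higher in the brainstem, against 20.1% of all tested names, and their median log2 fold change was 1.28. Oligodendrocytes make the myelin of the central nervous system. MiR-338-3p, from the Aatk gene, had 6089, 8891 and 10253 CPM in the brainstem and 1403, 3141 and 4081 CPM in the cerebrum, and miR-219a-5p had 237, 355 and 458 CPM and 28.7, 123 and 167 CPM. No brainstem library was as low as the highest cerebrum library for either. The log2 fold changes were 1.38 ± 0.09 (SE, edgeR adjusted p = 2.81e-07) for miR-338-3p, 1.54 ± 0.18 (SE, edgeR adjusted p = 2.63e-05) for miR-219a-5p and 1.11 ± 0.14 (SE, edgeR adjusted p = 5.84e-05) for miR-338-5p. MiR-219a-1-3p, which comes only from the first miR-219 gene, had 3.26, 5.02 and 7.41 CPM and 2.41, 3.51 and 5.02 CPM and did not pass (log2 fold change 0.39 ± 0.20 SE, edgeR adjusted p = 0.124). Added up, the 6 names of the list with a count held 8014, 12722 and 13951 CPM in the brainstem. In the cerebrum they held 2682, 4421 and 5484 CPM, with the brainstem higher in 10 of 10 rats. This sum includes miR-219b, which was not tested.

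The miR-34 family, which p53 induces and which is also strong in ciliated cells, was higher in the brainstem in 7 of its 8 tested names, against 20.1% of all names. MiR-34a-5p had 405, 1533 and 2488 CPM in the brainstem and 198, 293 and 373 CPM in the cerebrum, and its log2 fold change was 2.15 ± 0.19 (SE, edgeR adjusted p = 3.16e-06). The lowest brainstem library was again that of rat 9, at 405 CPM, and it was still above the highest cerebrum library. MiR-34c-5p had 1029, 1775 and 4516 CPM and 388, 751 and 1051 CPM, with a log2 fold change of 1.26 ± 0.29 (SE, edgeR adjusted p = 0.00324), and its ranges overlapped. The highest brainstem levels of miR-34c-5p were those of rats 7, 3, 5 and 4, at 4516, 3562, 2243 and 2132 CPM. MiR-449a-5p, which has the same seed, was near 4 CPM in both tissues and did not pass (log2 fold change 0.11). Beside these families, miR-298-5p rose from 64.8, 109 and 158 CPM in the cerebrum to 404, 497 and 594 CPM in the brainstem, with no overlap (log2 fold change 2.12 ± 0.17 SE, edgeR adjusted p = 1.41e-06).

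On the other side, 9 of the 10 tested pan-neuronal names were lower in the brainstem, against 28.3% of all names, with a median log2 fold change of -1.54. These miRNAs are expressed in most neurons and restrain genes of other cell fates. MiR-128-3p, which limits neuronal excitability, had 4161, 5384 and 9799 CPM in the brainstem and 34122, 45462 and 60349.5 CPM in the cerebrum. The groups were far apart, and the highest brainstem library was that of rat 9, with the next at 5860 CPM. The log2 fold change was -3.18 ± 0.17 (SE, edgeR adjusted p = 3.76e-08). The 5p arms of the 2 miR-128 genes fell alike, with log2 fold changes of -3.31 for the copy in R3hdm1 and -2.64 for the copy in Arpp21.

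MiR-124-3p, the classical neuronal miRNA, had 1908, 2387 and 3507 CPM in the brainstem and 4676, 5923 and 6691 CPM in the cerebrum, without overlap, and its log2 fold change was -1.42 ± 0.11 (SE, edgeR adjusted p = 1.41e-06). MiR-137-3p and miR-153-3p had medians of 95.4 and 293 CPM in the brainstem against 398 and 1028 CPM in the cerebrum, and log2 fold changes of -1.97 and -1.66. MiR-9a-5p had 19355, 21181 and 26018 CPM and 18611, 37129 and 39462 CPM. Its ranges overlapped only through rat 9, whose cerebrum library, at 18611 CPM, was below every brainstem library while the other 9 cerebrum libraries held 32574 CPM or more. The log2 fold change was -0.85 ± 0.12 (SE, edgeR adjusted p = 1.08e-04), and without rat 9 it was -0.95. The other arm, miR-9a-3p, did not pass (log2 fold change -0.22 ± 0.09 SE, edgeR adjusted p = 0.0731).

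Among the miRNAs linked to neuronal activity, miR-132 and miR-212 fell together. They are cut from neighbouring hairpins of a transcript that the factor CREB induces. MiR-132-3p had 684, 743 and 1687 CPM in the brainstem and 4419, 5767 and 7082 CPM in the cerebrum, and miR-212-3p had 141, 191 and 415 CPM and 789, 896 and 1242 CPM. Neither overlapped, and rat 9 was the highest brainstem library for both. The differences on the log2 scale were -2.93 ± 0.10 (SE, edgeR adjusted p = 1.22e-09) and -2.40 ± 0.10 (SE, edgeR adjusted p = 8.88e-09), and those of the 5p arms were -3.14 and -2.38. MiR-134-5p, a regulator of dendritic spines, went the other way, with 247, 282 and 608 CPM in the brainstem and 136, 172 and 208 CPM in the cerebrum (log2 fold change 0.65 ± 0.11 SE, edgeR adjusted p = 5.37e-04).

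The pair miR-221 and miR-222, which lies within 670 bases on chromosome X, was also lower in the brainstem. MiR-221-3p had 128, 175 and 679 CPM in the brainstem and 1449, 1788 and 2085 CPM in the cerebrum, and miR-222-3p had 219, 285 and 861 CPM and 1917, 2372 and 3014 CPM. Rat 9 was the highest brainstem library, at 679 and 861 CPM, and the remaining ones did not exceed 319 and 307 CPM. Their log2 fold changes were -3.27 ± 0.19 (SE, edgeR adjusted p = 6.99e-08) and -3.16 ± 0.15 (SE, edgeR adjusted p = 2.16e-08). All 4 names of the pair were called lower, against 28.3% of all names. MiR-222-5p, with medians of 0.70 CPM in the brainstem and 3.97 CPM in the cerebrum on the flow cells other than D1GBMACXX, passed the filter on low counts through the cerebrum. MiR-139-5p, inside the Pde2a gene, had 88.5, 116 and 407 CPM in the brainstem and 703, 832 and 1079 CPM in the cerebrum (log2 fold change -2.90 ± 0.15 SE, edgeR adjusted p = 3.35e-08), and miR-504, inside Fgf13, had a log2 fold change of -1.96.

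Smaller families with lower levels in the brainstem were miR-344 (3 of 3 tested names), miR-218 (2 of 3), and miR-138 with miR-129 (5 of 6), where 28.3% of all names were lower and counts this small are a description only. MiR-344b-1-3p had 40.4, 50.0 and 126 CPM in the brainstem and 115, 143 and 188 CPM in the cerebrum, and only rat 9 reached into the cerebrum range (log2 fold change -1.62 ± 0.16 SE, edgeR adjusted p = 6.25e-06). MiR-218a-5p, which is also known as a miRNA of motor neurons, had 566, 851 and 1409 CPM and 738, 1672 and 1930.1 CPM. Its level was lower in the brainstem as a whole (log2 fold change -1.03 ± 0.11 SE, edgeR adjusted p = 1.30e-05). MiR-138-5p had 4582, 7233 and 9645 CPM and 6703, 10142 and 11837 CPM, with overlap between the tissues (log2 fold change -0.66 ± 0.12 SE, edgeR adjusted p = 8.75e-04). MiR-7a-2-3p and miR-7a-5p fell by 2.35 and 1.12 on the log2 scale, and rat 9, at 373 CPM of miR-7a-5p, was the single brainstem library above 112 CPM.

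**Figure D4:**
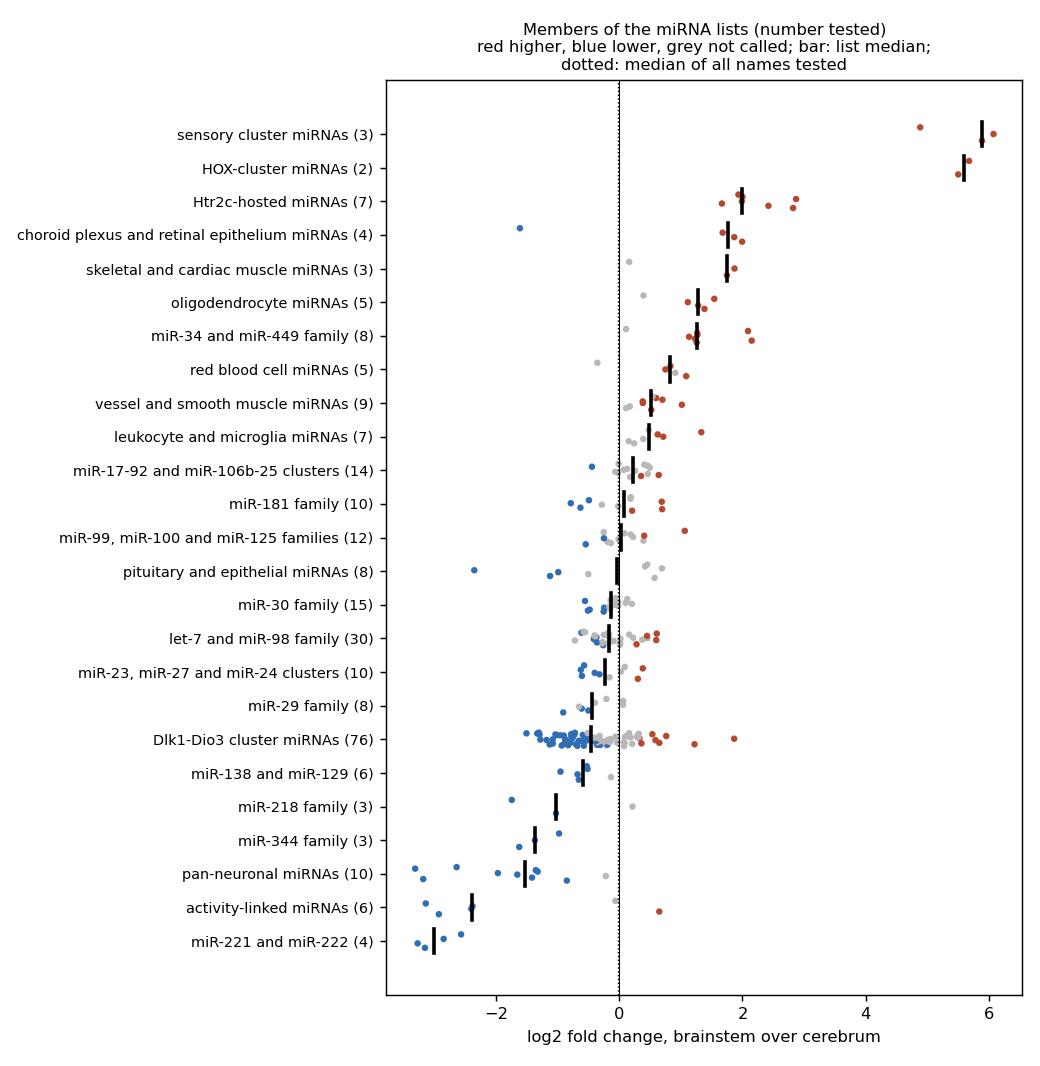
Log2 fold changes of brainstem over cerebrum for the tested members of each miRNA list, 1 row per list with the number tested in brackets. Red members were higher in the brainstem, blue lower and grey not called, the black bar is the list's median and the dotted line the median of all 636 names (-0.02). The sensory cluster and HOX-cluster lists lie above 4, and the miR-221 and miR-222 list lies below -2.

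The large imprinted cluster between Dlk1 and Dio3 on chromosome 6 gave 76 tested names, of which 43 were lower in the brainstem, 8 higher and 25 not called, that is 56.6% lower and 10.5% higher against 28.3% and 20.1% of all tested names. This cluster is expressed from the maternal chromosome and is one of the richest sources of miRNAs in the brain. The 2 most counted members were miR-127-3p, with 117773, 154494 and 205676 CPM in the brainstem and 111448, 131419 and 168555 CPM in the cerebrum, and miR-434-3p, with 19481, 22925 and 38582 CPM and 28814, 33107 and 41414 CPM. MiR-127-3p did not pass (log2 fold change 0.08 ± 0.07 SE, edgeR adjusted p = 0.399). It was called higher with TMM scaling (0.21, edgeR adjusted p = 0.0242) and in the runs on flow cell D1GBMACXX alone (0.42, edgeR adjusted p = 0.00153). MiR-434-3p, from a neighbouring hairpin, was lower (log2 fold change -0.68 ± 0.07 SE, edgeR adjusted p = 9.81e-06). The members that rose were not the abundant ones. MiR-666-5p had 60.2, 69.8 and 83.6 CPM in the brainstem against 8.64, 17.01 and 29.7 CPM in the cerebrum (log2 fold change 1.87 ± 0.21 SE, edgeR adjusted p = 2.03e-05), and miR-758-3p had 643, 695 and 949 CPM against 185, 264 and 396 CPM (log2 fold change 1.22 ± 0.09 SE, edgeR adjusted p = 8.85e-07). Neither overlapped between the tissues. The summed level of the cluster had medians of 206011 and 204298 CPM in the brainstem and the cerebrum.

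Neighbouring hairpins are often parts of a single transcript. Among the loci found, 27 had at least 2 tested hairpins less than 10000 bases apart. Of these 27, 18 held calls from at least 2 hairpins and so could have held both directions. In 10 of these 18 all called names were higher in the brainstem, in 5 all were lower, and 3 held calls in both directions, where 20.1% of all tested names were higher and 28.3% lower. The 3 mixed loci were 2 stretches of the Dlk1-Dio3 cluster and the pair let-7d with let-7f-1. These counts are not complete. They leave out some neighbouring hairpins, among them miR-132 with miR-212, whose names were called lower, and miR-181a-1 with miR-181b-1.

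Several abundant families are expressed in most tissues. Of 30 let-7 and miR-98 names 4 were higher and 5 lower, and of 15 miR-30 names 5 were lower, where 20.1% of all tested names were higher and 28.3% lower. MiR-181a-5p, among the most counted names in both tissues, had 153969, 192434 and 224729 CPM in the brainstem and 124863, 140930.0 and 172266 CPM in the cerebrum (log2 fold change 0.21 ± 0.08 SE, edgeR adjusted p = 0.0402). MiR-181b-5p rose by more (log2 fold change 0.70 ± 0.10 SE, edgeR adjusted p = 1.08e-04) and miR-181c-5p, which has the same seed but lies on another chromosome, fell (log2 fold change -0.63 ± 0.08 SE, edgeR adjusted p = 3.53e-05). MiR-22-3p had 55745, 62291 and 77930.3 CPM in the brainstem and 96943, 98925 and 109866 CPM in the cerebrum, with no overlap. MiR-26a-5p had 37468, 47420.0 and 60959 CPM and 62839, 67832 and 73905 CPM, again with no overlap. MiR-29a-3p had 5498, 6091 and 8606 CPM and 8930.2, 10572 and 11629.8 CPM. The log2 fold changes of these 3 were -0.85 ± 0.07 (SE, edgeR adjusted p = 2.03e-06), -0.69 ± 0.09 (SE, edgeR adjusted p = 6.26e-05) and -0.91 ± 0.09 (SE, edgeR adjusted p = 6.23e-06).

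Of the other families, miR-29 had 3 of 8 tested names lower, miR-23 with miR-27 and miR-24 had 2 of 10 higher and 5 lower, and miR-99 with miR-100 and miR-125 had 2 of 12 higher and 2 lower, against the same 20.1% higher and 28.3% lower of all names. The miR-17-92 and miR-106b-25 clusters, which promote cell growth, had 2 of 14 names higher and 1 lower. MiR-93-5p had 613, 843 and 905 CPM in the brainstem and 412, 464 and 497 CPM in the cerebrum, without overlap (log2 fold change 0.64 ± 0.07 SE, edgeR adjusted p = 1.26e-05).

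Markers of blood, vessels and muscle were examined as well. Of the red blood cell names 3 of 5 were higher, of the leukocyte and microglia names 3 of 7, of the vessel and smooth muscle names 6 of 9 and of the skeletal and cardiac muscle names 2 of 3, against 20.1% of all tested names, and none was lower. The summed levels of the vessel list ran over 19267, 45272 and 58802 CPM (lowest, median and highest) in the brainstem and 16487, 27739 and 35902 CPM in the cerebrum. For the leukocyte list the ranges were 1979.7, 2523 and 3181 CPM and 1314, 1915 and 2188 CPM, and for the red blood cell list 150.3, 320.3 and 1211 CPM and 98.9, 131 and 1071 CPM. The red blood cell maxima were libraries with a run on flow cell C2BUMACXX lane 8, described further on. The joint name that held the bulk of the miR-486-5p reads, also described there, is not in the red blood cell list. Its medians exceed those of the summed list in both tissues, so the sums cover only part of these reads. MiR-143-3p of smooth muscle had 13434, 35766 and 50307 CPM in the brainstem and 13039, 20929 and 27315 CPM in the cerebrum (log2 fold change 0.52 ± 0.12 SE, edgeR adjusted p = 0.00311), and miR-451-5p of red blood cells had 100.3, 204 and 325 CPM and 56.9, 83.3 and 129.9 CPM (log2 fold change 1.09 ± 0.15 SE, edgeR adjusted p = 1.04e-04). The part that blood or vessels play in the other results was not tested.

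MiR-133a-3p, known from striated muscle, had 214, 932 and 1154 CPM in the brainstem and 146, 202 and 866 CPM in the cerebrum, and its log2 fold change was 1.75 ± 0.29 (SE, edgeR adjusted p = 3.81e-04). The highest cerebrum value was that of rat 8, with the next at 213 CPM, and the lowest brainstem value that of rat 9, with the next at 799 CPM. The muscle-defining miR-206-3p did not exceed 0.889 CPM in any brainstem library and 7.22 CPM in the cerebrum, with 22 and 118 counts in all, and miR-208b-3p did not exceed 0.889 and 7.44 CPM, with 15 and 52 counts, so these 2 ran the other way. Neither passed the filter on low counts. A joint name of a predicted miRNA and miR-1-3p, which is not in the muscle list, was higher in the brainstem. On the flow cells other than D1GBMACXX its medians were 19.8 and 4.10 CPM (log2 fold change 1.97 ± 0.25 SE, edgeR adjusted p = 4.82e-05). MiR-1-3p under its own name had 11 counts in the brainstem and 23 in the cerebrum and was not tested. MiR-499-5p did not pass (log2 fold change 0.16 ± 0.11 SE, edgeR adjusted p = 0.267). The pituitary and epithelial list had 3 of 8 names lower and none higher, against 28.3% lower and 20.1% higher of all tested names. MiR-375-3p, a marker of endocrine cells, had 45.9, 156 and 252 CPM and 45.9, 93.5 and 141 CPM (log2 fold change 0.57 ± 0.29 SE, edgeR adjusted p = 0.127).

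The names that the study gives as specific to the brainstem or the cerebrum all fell below the filter on low counts and were not tested. The study defined specific by a raw count cutoff across rats in a single tissue of the whole atlas. That is another measure than this filter or a contrast of brainstem and cerebrum. The mean levels of these 11 names were 0.22 to 2.19 CPM in either tissue. The highest in the brainstem was miR-296-3p, at a mean of 2.03 CPM against 0.585 CPM in the cerebrum, and higher in 9 of 10 rats. At this depth such levels correspond to few reads per library.

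The cerebellum and the hippocampus of the same rats show where the brainstem stands among the brain tissues sequenced. These contrasts share the brainstem libraries, so they are given side by side. Of the 10 hippocampus libraries 3 (rats 2, 6 and 7) were closer to another organ than to any brain region and were left out here. In that fit of 754 names, 208 (27.6%) were higher and 236 (31.3%) lower in the brainstem than in the cerebellum, and 167 (22.1%) were higher and 166 (22.0%) lower than in the hippocampus. The scaling moves these values, because log2 fold changes from library totals alone, the scale of the CPM, were higher by a median of 0.91 against the cerebellum and 0.09 against the hippocampus. With TMM scaling the shifts were 0.23 and -0.19. From library totals 419 names were higher and 89 lower than in the cerebellum, and with TMM 264 and 186.

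MiR-10b-5p had mean levels of 11563 ± 4244 CPM (SD, n = 10) in the brainstem, 865 ± 219 CPM in the cerebellum (n = 10) and 94.5 ± 36.4 CPM in the hippocampus (n = 7). The log2 fold change of brainstem over cerebellum was 2.80 ± 0.33 (SE, edgeR adjusted p = 2.74e-08) and that over hippocampus 6.83 ± 0.47 (SE, edgeR adjusted p = 2.13e-12). With all 10 hippocampus libraries in the fit neither was called (log2 fold change 2.63, edgeR adjusted p = 0.0733, and 0.57, edgeR adjusted p = 0.873). MiR-34a-5p held the same place, with log2 fold changes of 0.74 ± 0.18 (SE, edgeR adjusted p = 8.11e-04) over the cerebellum and 4.08 ± 0.24 (SE, edgeR adjusted p = 1.83e-13) over the hippocampus. MiR-219a-2-3p was also highest in the brainstem, with means of 313 ± 38.3 CPM in the cerebellum and 658 ± 114 CPM in the hippocampus and log2 fold changes of 2.17 ± 0.14 (SE, edgeR adjusted p = 1.22e-13) and 1.92 ± 0.16 (SE, edgeR adjusted p = 1.51e-10). MiR-764-3p had means of 7.29 ± 6.82 CPM and 44.6 ± 9.92 CPM there, and log2 fold changes of 3.25 ± 0.40 (SE, edgeR adjusted p = 5.10e-08) and 1.00 ± 0.40 (SE, edgeR adjusted p = 0.0474). The second of these was not called with TMM scaling (edgeR adjusted p = 0.109) or with all 10 hippocampus libraries (edgeR adjusted p = 0.057).

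The miRNAs that were low in the brainstem differed in where else they were low. MiR-221-3p had a mean of 27.1 ± 14.7 CPM in the cerebellum and 3021 ± 361 CPM in the hippocampus, so the brainstem was above the cerebellum and below the hippocampus. Its log2 fold changes were 2.15 ± 0.22 (SE, edgeR adjusted p = 2.31e-09) and -3.91 ± 0.25 (SE, edgeR adjusted p = 6.67e-13). MiR-132-3p showed the same order, with log2 fold changes of 0.77 ± 0.11 (SE, edgeR adjusted p = 9.62e-07) and -1.08 ± 0.12 (SE, edgeR adjusted p = 4.95e-08), neither of them called with all 10 hippocampus libraries (edgeR adjusted p = 0.0823 and 0.27). MiR-128-3p was lowest in the brainstem of all 4 tissues, with log2 fold changes of -1.95 ± 0.13 (SE, edgeR adjusted p = 4.28e-13) against the cerebellum and -2.19 ± 0.15 (SE, edgeR adjusted p = 1.54e-12) against the hippocampus.

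**Figure D5:**
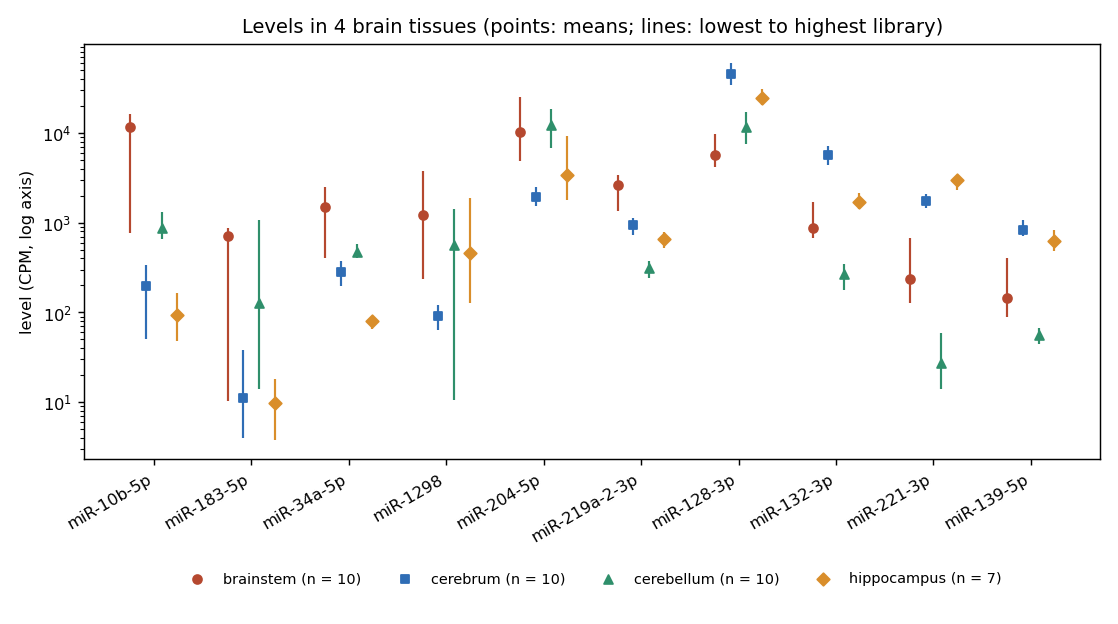
Mean level in CPM (log axis) of 10 miRNAs in the brainstem, cerebrum, cerebellum (10 libraries each) and hippocampus (7 libraries), with lines from the lowest to the highest library. MiR-10b-5p, miR-34a-5p and miR-219a-2-3p are highest in the brainstem, miR-128-3p is lowest there, and miR-132-3p and miR-221-3p are lower in the cerebellum than in the brainstem.

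The ratio between the 2 arms of a hairpin does not depend on library scaling, and it differed between the tissues for 26 of 95 precursors (27.4%), 13 in each direction (exact sign-flip permutation test over the 10 rats, adjusted p below 0.05). Among the 26, the 4 with the largest shifts were in the Dlk1-Dio3 cluster. For miR-337 the mean log2 ratio of 5p to 3p counts was 1.55 ± 0.276 (SD, n = 10) in the brainstem and 2.91 ± 0.487 in the cerebrum. For miR-666 the ratios were -0.65 ± 0.247 and -1.93 ± 0.408, for miR-127 they were -9.30 ± 0.124 and -8.39 ± 0.233, and for miR-540 they were -2.68 ± 0.312 and -1.81 ± 0.247. In each of these 4 all 10 rats had the same direction (exact p = 0.00195, the smallest that 10 pairs can give, adjusted p = 0.0133). MiR-9a also shifted, from 5.31 ± 0.194 in the cerebrum to 4.68 ± 0.171 in the brainstem.

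The deposited table of read sequences gives the isomiRs, the variants of a miRNA that differ at their ends. The runs of brainstem rat 6 and cerebrum rat 9 on flow cell C2BUMACXX lane 8 stood apart. Of their counts 61.1% and 61.7% had another 5′ end than the most counted read of the name, against 1.97% to 2.69% in the other 38 runs. Most of the shifted counts on lane 8 started 1 base earlier. With these 2 runs, 0 of 197 names passed in either isomiR measure (exact sign-flip permutation test, with 12 and 2 names at an unadjusted p below 0.05). Without them, 32 of 192 names differed in the share on their most counted read and 46 in the share with another 5′ end. Brainstem rat 11 and cerebrum rat 6 had runs on the same lane of flow cell D2C4RACXX, which were kept. There 50.3% and 55.3% of the counts fell on the most counted read, against 56.8% and 62.9% in the runs of these libraries on flow cell D1GBMACXX. MiR-127-5p had another 5′ end in 35.7% ± 2.32 (SD, n = 10) of its counts in the brainstem and 51.5% ± 1.30 in the cerebrum, lower in 10 of 10 rats (exact p = 0.00195, adjusted p = 0.0134). For miR-9a-3p the shares were 21.4% ± 1.32 and 29.8% ± 1.33, with the same p. On their most counted read, miR-148b-3p held 36.5% ± 7.65 in the brainstem and 50.1% ± 2.81 in the cerebrum, and miR-495 held 64.6% ± 3.81 and 53.0% ± 1.64. A 5′ end that is shifted by 1 base changes the seed.

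The same 2 runs touch single names at the name level too. MiR-486-5p had 1103 and 1127 CPM on lane 8 and 32.3 and 39.7 CPM in the runs of the same libraries on flow cell D1GBMACXX. It was not called over all runs (log2 fold change 0.91 ± 0.69 SE, edgeR adjusted p = 0.321). A joint name of miR-3107-5p and miR-486-5p held the bulk of these reads, with medians of 4392 CPM in the brainstem and 2608 CPM in the cerebrum. Without lane 8, 136 names were higher and 173 lower of 633 tested, and 105 of the 113 tested names chosen by the rule were on the same side of the threshold in the same direction.

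Whether the contrast differs between males and females was asked with 5 rats of each sex. The edgeR test of the tissue by sex term called 0 of 636 names, with 10 names (1.57%) at an unadjusted p below 0.05, and DESeq2 also called 0. The smallest p-values were those of a name shared by miR-1-3p (p = 0.0101), of miR-22-3p (p = 0.0107) and of miR-496-3p (p = 0.0121), each with an edgeR adjusted p of 0.988. MiR-22-3p was lower in the brainstem of both sexes.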

How the data were processed

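Small RNA libraries of 10 brainstems and 10 cerebra were analysed, 2 sequencing runs per library. Each library was run on flow cell D1GBMACXX and again on C2BUMACXX or D2C4RACXX. The 2 tissues of a rat shared this second flow cell in only 4 rats. In a fit of these 4 rats, 122 names were higher and 131 lower of 659 tested. The counts were made by the authors: adapters were trimmed with cutadapt 1.4.1, reads under 17 bases or with an undetermined base were removed, and the rest were collapsed and assigned with miRDeep2 to miRBase 20 hairpins of rat and then of other species. The deposited values are raw read counts per name and run, and reads that fit several miRNAs carry a joint name. The deposited isomiR table gives read counts per sequence, and its 418 columns of other tissues were not used.

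Runs were summed per library. No run of these libraries repeats a lane, although 14 in the series do. Names were filtered with filterByExpr, scaled by the upper quartile and tested with edgeR 4.0.16 (R 4.3.3, quasi-likelihood F test, rat as block, Benjamini-Hochberg adjustment over 636 names, threshold 0.05). DESeq2 1.42.0 was an alternative. The script was tested on simulated data. Arm ratios (names of at least 10 CPM, pseudocount 0.5) and isomiR shares (at least 100 CPM) were tested with an exact two-sided sign-flip permutation test over 10 rats. The pairs come from the animal number. Deviations of the 2 libraries of a rat correlated at a median of -0.10, against 0.037 for different rats.

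Named miRNAs were the 2 given markers, the 12 names with the largest rise and the 12 with the largest fall (called, same direction in every rat, at least 20 CPM), the members of 25 lists, the 8 most counted names per tissue, the names the study gives as specific to either tissue, and those leading the sex, arm and isomiR tests. Members, lists and tests were chosen with earlier results of these data known. Sequences and positions are from RefSeq (GRCr8). Alternatives covered scaling, filter, block, flow cells, sexes and each rat left out, and those without 3 hippocampus libraries were chosen after seeing the data.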

Additional observations from a re-analysis of the deposited data

Results flagged for a closer look

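In each tissue the highest and the lowest of the 10 libraries were compared with their nearest neighbour for the 113 named miRNAs that were tested. Among these 226 groups 66 held a library whose gap exceeded Dixon's critical value of 0.466 of the range. Chance flags about 1 in 20 only among independent, normally distributed values. The gaps here were taken on CPM and the names share their libraries, so the 66 are a description only. The brainstem of rat 9 accounted for 33 of the 66 and its cerebrum for 10, and the brainstem of rat 11 for 9. In the brackets below, "next" is the value of the nearest library of the same tissue.

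The brainstem library of rat 9 was the lowest for miR-219a-2-3p (1335 CPM, next 2464), miR-182 (98.0 CPM, next 4574), miR-10b-5p (766 CPM, next 9701), miR-10a-5p (728 CPM, next 9684), miR-338-3p (6089 CPM, next 8071) and miR-183-5p (10.2 CPM, next 698). It was also the lowest for miR-181a-1-3p (741 CPM, next 915), miR-27b-3p (18447 CPM, next 28057), miR-126a-3p (1431 CPM, next 1910.1) and miR-133a-3p (214 CPM, next 799). All of these but miR-181a-1-3p and miR-126a-3p were called higher in the brainstem.

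The same library was the highest brainstem library for miR-653-5p (212 CPM, next 93.3), miR-489-3p (75.6 CPM, next 31.2), miR-3547 (174 CPM, next 92.8), miR-128-1-5p (23.6 CPM, next 18.3), miR-221-3p (679 CPM, next 319), miR-128-3p (9799 CPM, next 5859.9), miR-222-3p (861 CPM, next 307) and miR-132-5p (157 CPM, next 103). Further names with their highest brainstem value in rat 9 were miR-132-3p (1687 CPM, next 1151), miR-139-5p (407 CPM, next 166), miR-221-5p (72.7 CPM, next 25.2), miR-212-3p (415 CPM, next 243), miR-212-5p (197 CPM, next 116), miR-7a-2-3p (32.1 CPM, next 11.5), miR-344b-1-3p (126 CPM, next 63.4) and miR-344b-5p (17.7 CPM, next 5.28). The remaining ones were miR-434-3p (38582 CPM, next 25631), miR-410-3p (4581 CPM, next 3029.5), miR-29a-3p (8606 CPM, next 7150.4), miR-29c-3p (1410.5 CPM, next 1096), miR-181c-5p (6481 CPM, next 4748), miR-7a-5p (373 CPM, next 112) and miR-7b (66.9 CPM, next 33.5). The part that the dissection or handling of this library plays was not tested.

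The cerebrum library of rat 9 was the lowest for miR-9a-5p (18611 CPM, next 32574), let-7g-5p (5557 CPM, next 7118), miR-29c-3p (605 CPM, next 1115), miR-29b-3p (139 CPM, next 414), miR-30e-5p (7196 CPM, next 12432) and miR-126a-5p (2006 CPM, next 4563). It was the highest for miR-344a-3p (16.2 CPM, next 8.24), miR-129-5p (1180.0 CPM, next 929), miR-127-3p (168555 CPM, next 139465) and miR-486-5p (967 CPM, next 25.0). This library had a run on flow cell C2BUMACXX lane 8, but the level of miR-9a-5p was low in both of its runs, at 18712 and 18594 CPM.

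In the brainstem of rat 11 the highest values were those of miR-338-5p (1329 CPM, next 737), miR-134-5p (608 CPM, next 352), miR-218a-5p (1409 CPM, next 997), let-7f-5p (17290.3 CPM, next 13484), let-7c-5p (18951 CPM, next 11018), let-7i-5p (15404 CPM, next 9053), miR-29a-3p;miR-29c-3p (653 CPM, next 14.9), miR-23b-3p (1598 CPM, next 1160.0) and miR-24-3p (1321 CPM, next 784). In the cerebrum of rat 6 the values that stood out were the highest of miR-653-5p (19.5 CPM, next 9.81), miR-489-3p (8.44 CPM, next 4.48), miR-1264-3p (5.02 CPM, next 3.28) and miR-29a-3p;miR-29c-3p (1008 CPM, next 20.6) and the lowest of miR-24-3p (624 CPM, next 879). The brainstem library of rat 11 and the cerebrum library of rat 6 shared a lane of flow cell D2C4RACXX. The joint name of miR-29a-3p and miR-29c-3p did not exceed 4.76 CPM (brainstem) and 7.13 CPM (cerebrum) in any run on flow cell D1GBMACXX. On the other flow cells it reached 743 and 1150 CPM.

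Single values stood out in other libraries. The brainstem of rat 7 was the highest for miR-1264-3p (33.8 CPM, next 19.5) and miR-204-5p (25458 CPM, next 15764), that of rat 6 for miR-486-5p (956 CPM, next 95.3) through its lane 8 run, and that of rat 8 for miR-99b-5p (14089.9 CPM, next 11678). The cerebrum of rat 2 was the highest for miR-182 (244 CPM, next 113) and miR-183-5p (38.0 CPM, next 17.9), that of rat 8 for miR-133a-3p (866 CPM, next 213) and miR-133a-3p;miR-133b-3p (21.7 CPM, next 11.5), and that of rat 5 for miR-146a-5p (137 CPM, next 103).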

How the results depend on the processing

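Leaving out each rat in turn gave 275 to 340 called names, 115 to 145 higher and 152 to 195 lower in the brainstem, and the highest counts were those without rat 9. The rat was a block because both libraries come from the same animal, and without the replicate block 312 names were called (129 higher, 183 lower), while the pairing changed the call of 8 of the 113 tested named miRNAs. The split between directions moved with the scaling, from 41.6% higher with upper-quartile scaling to 52.4% with TMM (163 higher, 148 lower), 49.5% with RLE, 51.9% with DESeq2 and 56.1% with library totals alone. No filter on low counts gave 119 called names (48 higher, 71 lower) of 4045, names of at least 10 CPM gave 170 higher and 109 lower, females alone 173 (68 and 105) and males alone 94 and 114. The runs on flow cell D1GBMACXX alone, with 7.55% to 15.7% of each library's counts, gave 147 and 70 of 397. The number of samples fell in the single-sex fits, and for the other settings the cause was not tested. Names that turned direction and were called in either fit were let-7f-5p (0.087), miR-30a-5p (0.12), miR-27a-3p (0.028) and miR-181a-1-3p (0.33) on that flow cell alone, miR-181a-1-3p also for names of at least 10 CPM (0.24), and miR-181a-5p without a filter (-0.047). Counting also names called in neither fit, the sign changed for 12 of 95 named miRNAs on that flow cell, 3 of 113 with TMM (miR-134-3p, miR-181a-1-3p and miR-99b-5p), 7 with library totals, 2 without rat 9 and 1 of 112 without lane 8 (miR-181a-1-3p), and without rat 9 only let-7i-5p lost its call among those named. The sex term called 1 name without a filter and 0 under the other alternatives. With all 10 hippocampus libraries, 105 names were higher and 182 lower than in the cerebellum and 66 and 94 than in the hippocampus, against 208 and 236, and 167 and 166, without the 3 that stood apart (alternatives chosen after seeing the data), which became 264 and 186, and 121 and 208, with TMM and 419 and 89, and 197 and 142, with library totals, and 198 were lower than in the hippocampus with no replicate block. Arm ratios were called for 12 precursors on flow cell D1GBMACXX alone, 8 with at least 100 CPM for both arms and 27 with a pseudocount of 5. The isomiR calls were 47 and 18 names (most counted read and other 5′ end) on flow cell D1GBMACXX alone and 32 and 46 without lane 8, against 0 and 0 with all runs, so both measures rest on the 2 lane 8 runs. Depth limits the names near the filter, where a library holds few reads.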

Other observations

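Some abundant miRNAs outside the rule for named miRNAs also differed. They were chosen after their values were seen. MiR-21-5p, a miRNA that responds to injury and inflammation, had 2062, 3425 and 3673 CPM (lowest, median and highest) in the brainstem and 573, 1417 and 1790.2 CPM in the cerebrum, with no overlap (log2 fold change 1.15 ± 0.07 SE, edgeR adjusted p = 2.81e-07). MiR-135a-5p had 286, 389.6 and 609 CPM and 51.8, 142 and 184 CPM, and miR-135b-5p, which shares its seed, had 40.9, 59.8 and 77.3 CPM and 8.92, 33.1 and 39.5 CPM. Both were higher in the brainstem (log2 fold changes 1.39 and 0.89). MiR-873-5p had 102, 149.7 and 229 CPM and 254, 371 and 504 CPM, and miR-674-3p had 61.0, 73.1 and 93.6 CPM and 149.6, 182 and 246 CPM. Both were lower in the brainstem without overlap (log2 fold changes -1.53 and -1.50). MiR-215 varied most widely, from 5.28 to 1218 CPM in the brainstem and from 3.04 to 216 CPM in the cerebrum, and was not called (edgeR adjusted p = 0.145).

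The miR-183 cluster was high in a single cerebellum library. MiR-183-5p stood at 1066 CPM in the cerebellum of rat 10 and at 14.1 to 46.1 CPM in the other 9 cerebellum libraries. MiR-182 stood at 6521 CPM in the same library against 119 to 415 CPM in the others, and miR-96-5p at 61.2 CPM against at most 2.72 CPM. In the hippocampus miR-183-5p did not exceed 18.0 CPM and miR-182 did not exceed 121 CPM in 7 libraries. The values of the cerebellum of rat 10 were thus near those of the 9 high brainstem libraries, while its miR-10a-5p and miR-10b-5p were not the highest of the cerebellum. MiR-653-5p was high in another single cerebellum library, that of rat 2, at 26.2 CPM against at most 1.52 CPM in the others.

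MiR-1298 and miR-204-5p, which were highest in the same brainstem libraries, varied widely elsewhere as well. MiR-1298 ran from 10.7 to 1414 CPM in the cerebellum and from 127 to 1904 CPM in the hippocampus. MiR-204-5p ran from 6840.4 to 18475 CPM and from 1796 to 9214 CPM. The highest cerebellum library was that of rat 2 and the highest hippocampus library that of rat 8 for both. Names other than single mature miRNAs held little of the data. Single names held 98.4% of the brainstem counts and 98.5% of the cerebrum counts. Of 120 predicted names tested 6 were higher and 15 lower, against 20.1% higher and 28.3% lower of all tested names.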
